A study of Rattus norvegicus with 8 samples.

Results

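The genes described here are ligands, receptors and signal carriers of the transforming growth factor beta (TGF-beta) and bone morphogenetic protein (BMP) pathways in thoracic spinal cord of injured and sham-operated rats. They were chosen by name, as a list of 10 gene symbols. A member was read from the probe set that the platform annotation gives to that symbol alone. In this way 9 of the 10 were found among 18166 genes, each with a single such probe set, and Tgfbr2, the type II receptor, was not analysed here. The animals were Long Evans males, approximately 175 days old and weighing 400 g, all of which were moved to a high-fat diet (40% of energy or weight as fat, the labels do not say which) after 4 weeks of recovery from surgery. The labels give a total of 8 weeks without saying whether it counts the diet alone or the time since surgery, so the age of the lesion at sampling is not settled. The injured group (SCI) had 4 arrays from cord injured at thoracic level, and the control group (sham) had 4 from laminectomy alone. Both groups share the diet, so the comparison is between surgeries and not between diets. For the high-fat diet the labels give 4.54 kcal per g, and they also name a chow of 17% fat and 3.0 kcal per g. The design text speaks of 10 rats, against 8 arrays here. The labels do not give the force, level or completeness of the lesion, nor its distance from the sampled piece, which 1 label places at thoracic segments 10 to 11 and another at 11 to 12.

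TGF-beta ligands are secreted in a latent form, held in the matrix or on the cell surface, and act once released. A ligand brings a type II and a type I receptor together, and the type I receptor phosphorylates Smad proteins, which enter the nucleus: Smad2 and Smad3 for TGF-beta, and Smad1, Smad5 and Smad9 for BMPs. Smad7 is an inhibitory Smad that the pathway itself induces, and Tgfbi encodes a matrix protein named for its induction by TGF-beta. In injured cord this pathway is known for its part in scar formation and in the behaviour of astrocytes, microglia and macrophages.

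In injured cord Tgfbr1, Tgfb1, Tgfb2 and Bmp4 were higher than in sham, and no member was lower by the same test (adjusted p under 0.05, limma across all 18166 genes). Tgfbr1, the type I receptor for TGF-beta, was 2.22-fold and Tgfb1 2.07-fold the sham level. Tgfb2 and Bmp4 were 1.42-fold and 1.33-fold. The other 5 members, Tgfb3, Tgfbi, Bmp7, Smad3 and Smad7, did not pass. Of all genes, 7.10% passed as higher and 7.06% as lower, so that 4 of 9 higher members is a larger share than that of all genes. The 9 members had means above the median level of all genes (4.74). With genes below that level left out, 6 members passed as higher, beside 15.1% higher and 20% lower of the 9083 genes then tested. Members were chosen with earlier results of these data known, and their share was not tested. The median difference was 0.45 over the 9 members and -0.01 over all genes, on the log2 scale on which a step of 1 is a doubling of signal. The groups did not overlap in 6 of the 9 members, against 20.3% of all genes.

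All values below are log2 signals from RMA, the authors' normalization, and the level of one gene is not set against that of another, because probe sets differ in brightness. The median signal of an array ranged from 3.73 to 3.81, and no pair of arrays was identical. SCI 3, sham 1 and sham 2 were set apart on a principal component in earlier work on these data, so results were also computed without them. The labelled tissue was not checked by level, since signals of different probe sets cannot be compared and no detection calls were used. Between the groups, 1 of 6 Hox genes of thoracic position was lower in SCI (Hoxa7, -0.41, adjusted p = 0.034), and none of 4 forebrain or 3 skeletal muscle genes passed. All 10 markers of macrophages and microglia were higher in SCI, with a summed signal of 11.44 to 11.83 against 10.07 to 10.36 in sham. Of 10 markers of fibroblasts and meninges 7 were higher (11.38 to 11.83 against 10.61 to 11.29), and 6 of 8 oligodendrocyte (12.58 to 12.79 against 13.24 to 13.32) and 9 of 10 neuron markers (12.63 to 12.92 against 13.17 to 13.37) were lower. Of 8 astrocyte markers 2 were higher (Gfap, 0.81, and Gja1, 0.59) and 1 lower (Slc1a2, -0.39, adjusted p = 0.032). Over the 8 the median difference was 0.10, with 5 above 0. Their summed signal, to which the brightest probe sets add most, was 13.44 to 13.56 in SCI against 13.29 to 13.32 in sham. Of 7 Schwann cell markers 3 were higher (Scn7a, 1.25, Ncmap, 0.91, and Pmp22, 0.83) and 1 lower (Sox10, -0.34, adjusted p = 0.021). Summed, these were at 10.7 to 11.07 in SCI against 10.16 to 10.37 in sham. Of 8 genes listed as markers of T and B cells 3 were higher and 0 lower, namely Cd8a (1.48), Cd4 (0.95) and Cd3g (0.49). Which cells carried the Cd8a and Cd4 signal was not tested. Cd3g had means of 2.31 in SCI and 1.82 in sham, below the median signal of every array. The T cell genes Cd3e and Cd3d and the B cell genes Cd79a, Cd79b and Ms4a1 did not pass. Of 8 markers of endothelium and pericytes 2 were higher (Vtn, 1.01, and Cdh5, 0.68) and 0 lower. Only 3 of the 8 had a difference above 0, and their median was -0.15. Summed, they were at 9.41 to 9.60 in SCI against 9.31 to 9.44 in sham. The RNA came from whole tissue, in which a change in the number of cells of a type and a change in RNA per cell cannot be told apart. The part of these cell types in the results on the TGF-beta and BMP genes was not tested.

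**Figure D1:**
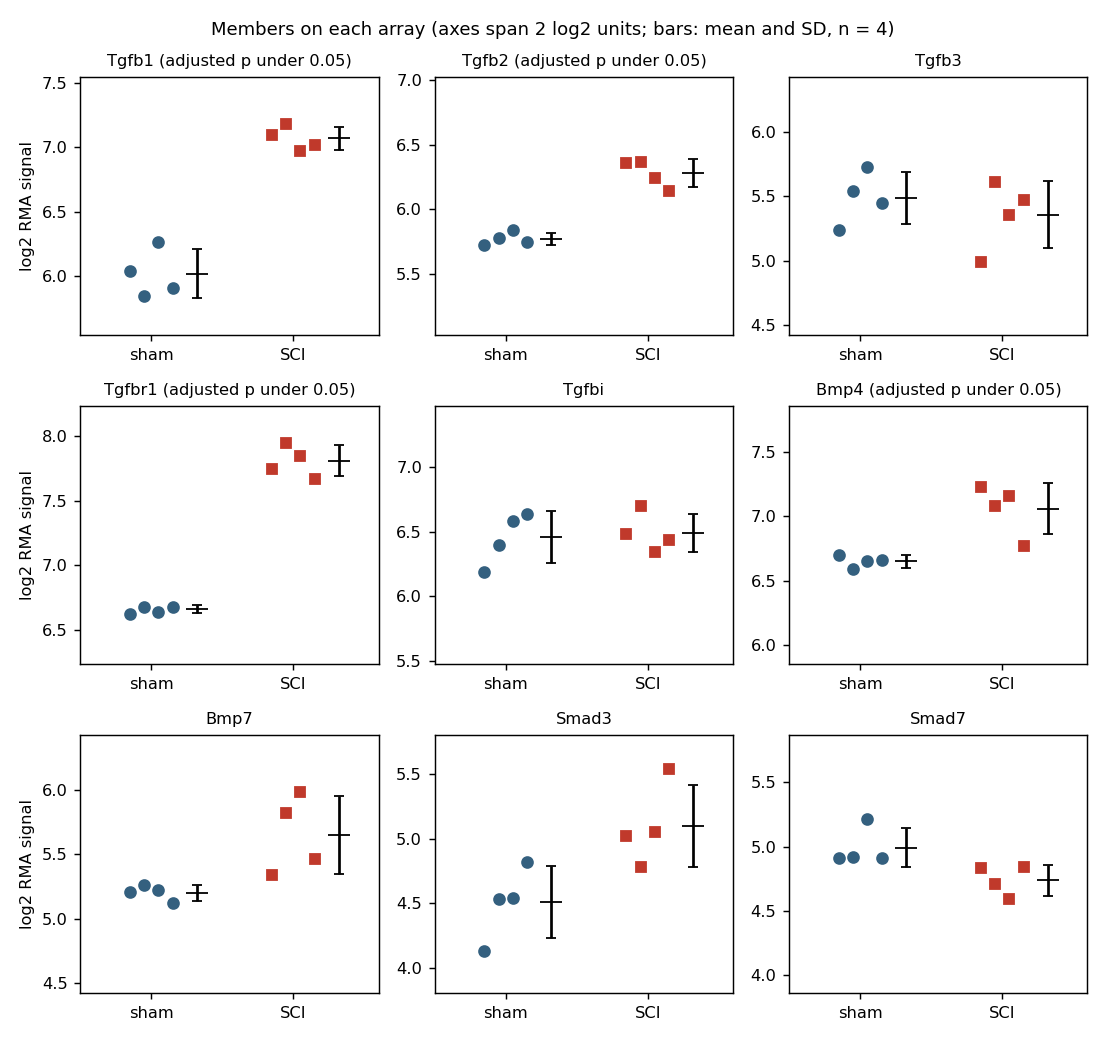
Signal of each of the 9 measured members on each array (vertical axis, log2 RMA signal, every panel spanning 2 log2 units), with sham arrays as blue circles and SCI arrays as red squares in the order 1 to 4, and the mean and SD (n = 4) beside them. The SCI arrays of Tgfbr1 sit between 7.67 and 7.95, above all sham arrays (6.62 to 6.68), whereas the groups of Tgfb3, Tgfbi and Smad3 overlap.

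Promoters of 3 of the 4 higher members and of Smad7 are shown because the pathway is known to act back on its own genes through Smad and GC-rich sites. RefSeq windows of 300 bases (GRCr8 build), 250 before and 50 from the annotated start, were held for 8 of the 9 measured members, without Bmp7. Letters searched on both strands were CAGAC, a form of the Smad-binding element, GGCGCC, a GC-rich element bound by Smads, and GGGCGG, the GC box of Sp1-type factors. Other forms of the Smad-binding element were not searched. They occur in 50.1%, 11.0% and 33.1% of all 33469 promoter windows. Capitals mark matches. The windows are Tgfb1 at chr1:90324062-90324361 (plus strand), Tgfbr1 at chr5:66449148-66449447 (plus), Bmp4 at chr15:22101884-22102183 (minus) and Smad7 at chr18:71263258-71263557 (plus), each written from 5′ to 3′ along the gene.
Tgfb1: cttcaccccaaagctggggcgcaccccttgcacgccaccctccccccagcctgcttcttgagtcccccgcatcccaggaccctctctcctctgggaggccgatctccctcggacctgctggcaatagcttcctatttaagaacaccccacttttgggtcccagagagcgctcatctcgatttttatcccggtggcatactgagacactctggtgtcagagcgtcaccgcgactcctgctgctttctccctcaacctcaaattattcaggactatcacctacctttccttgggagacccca
Tgfbr1: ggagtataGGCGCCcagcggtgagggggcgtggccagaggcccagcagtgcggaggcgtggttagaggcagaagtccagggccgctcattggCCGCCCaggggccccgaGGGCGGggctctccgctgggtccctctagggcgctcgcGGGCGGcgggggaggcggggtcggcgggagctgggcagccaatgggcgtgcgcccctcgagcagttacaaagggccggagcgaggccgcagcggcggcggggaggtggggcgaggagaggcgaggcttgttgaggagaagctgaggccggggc
Bmp4: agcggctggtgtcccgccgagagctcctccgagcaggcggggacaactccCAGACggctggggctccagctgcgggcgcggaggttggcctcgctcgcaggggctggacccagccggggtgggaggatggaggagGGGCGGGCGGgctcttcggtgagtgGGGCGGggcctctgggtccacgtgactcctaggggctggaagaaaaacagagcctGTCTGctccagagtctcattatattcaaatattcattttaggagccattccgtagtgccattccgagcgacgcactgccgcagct
Smad7: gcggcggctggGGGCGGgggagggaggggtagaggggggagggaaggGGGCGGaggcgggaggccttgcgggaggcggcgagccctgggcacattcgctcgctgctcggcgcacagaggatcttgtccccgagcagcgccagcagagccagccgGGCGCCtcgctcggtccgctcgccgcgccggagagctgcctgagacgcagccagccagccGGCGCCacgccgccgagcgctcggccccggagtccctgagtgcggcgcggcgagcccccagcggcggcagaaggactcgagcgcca

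The 2 members with the largest rises, as given below, had unlike windows. That of Tgfb1 held no match to any of the 3 motifs at 57.7% GC, while that of Tgfbr1 held 1 GGCGCC and 3 GGGCGG at 74.7% GC. The Bmp4 window held 2 CAGAC, the only matches to it among the 8 measured members with a window, and 3 GGGCGG, of which those at -115 and -111 from the start site overlap. The Smad7 window held 2 GGCGCC and 2 GGGCGG. Those of Tgfbi and Smad3, which did not pass as higher, held 1 GGCGCC each, with 2 and 1 GGGCGG, and those of Tgfb2 and Tgfb3 held none. A match is a description of letters, not of a bound site, and its relation to the differences was not tested.

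Among the ligands, Tgfb1, the TGF-beta isoform made in quantity by macrophages and microglia, had the largest difference. Its signal (probe set 17614474) was 7.10, 7.18, 6.97 and 7.02 on SCI arrays 1 to 4 and 6.04, 5.85, 6.27 and 5.91 on sham arrays 1 to 4. Every SCI array was above every sham array, and the gap between the groups was wider than the range within either. The means were 7.07 ± 0.09 and 6.02 ± 0.19 (SD, n = 4). The difference was 1.05 with an SE of 0.11 and a 95% interval of 0.80 to 1.30, which is 1.75-fold to 2.46-fold (adjusted p = 2.3e-04).

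Tgfb2, an isoform known in neurons and astrocytes, rose by less. It was at 6.36, 6.37, 6.24 and 6.14 on the SCI arrays and at 5.72, 5.78, 5.84 and 5.75 on the sham arrays (probe set 17687457). The groups did not overlap, and the sham arrays lay close together, with an SD of 0.05 against 0.11 in SCI. The difference was 0.50 (SE 0.09, interval 0.30 to 0.70, adjusted p = 0.0049). This call was lost without SCI 3, sham 1 and sham 2 together (0.49, adjusted p = 0.075).

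Tgfb3, the third isoform, did not pass in either direction. Its SCI arrays read 4.99, 5.61, 5.36 and 5.47 and its sham arrays 5.24, 5.54, 5.73 and 5.45 (probe set 17823379). SCI 1 was the lowest of the 8 and the other arrays were interleaved. The difference of -0.13 (SE 0.15) had an interval of -0.46 to 0.20, and its adjusted p was 0.65. A fall to 0.728-fold or a rise to 1.15-fold would both lie within it.

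The signals of the 3 isoforms changed unequally. The within-array difference of Tgfb1 and Tgfb2 was larger in SCI than in sham by 0.55, that of Tgfb1 and Tgfb3 by 1.18 and that of Tgfb2 and Tgfb3 by 0.63. Each had p = 0.029 by exact permutation of the group labels (two-sided, 70 ways), the smallest p the design allows, and 0.036 after adjustment over the 5 pairs compared. These tests concern the size of change in signal and not which isoform is the more abundant. RMA tends to compress differences of dim probe sets. An unlike response of the probe sets and an unlike change of RNA cannot be told apart here.

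Bmp4 and Bmp7 are BMP ligands, of which Bmp4 is known to favour astrocyte over oligodendrocyte fate in precursor cells. Bmp4 read 7.23, 7.08, 7.16 and 6.77 on the SCI arrays and 6.70, 6.59, 6.65 and 6.66 on the sham arrays (probe set 17701730). SCI 4 was just above the highest sham array, and the other SCI arrays stood clear of it. The difference was 0.41 (SE 0.11, interval 0.16 to 0.66, adjusted p = 0.032). The call was not stable. With 1 array left out it remained in 1 of 8 fits, the one without SCI 4 (0.51, adjusted p = 0.0069). In the other 7 the difference was 0.36 to 0.43 and the adjusted p 0.056 to 0.092. It was also lost with all probe sets fitted (0.089), with the second number of the array titles as a covariate (0.33, adjusted p = 0.17) and without SCI 3, sham 1 and sham 2 together (0.37, adjusted p = 0.22). The labels do not explain that number.

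Bmp7 was at 5.34, 5.82, 5.98 and 5.46 on the SCI arrays and at 5.21, 5.26, 5.22 and 5.12 on the sham arrays (probe set 17779753). The groups did not overlap, but the SCI arrays split, with SCI 2 and SCI 3 high and SCI 1 and SCI 4 near sham. Its SD was 0.30 in SCI and 0.06 in sham, and the difference of 0.45 (SE 0.14, interval 0.14 to 0.76) did not pass (adjusted p = 0.057). With all 8 arrays and the same difference it passed without genes below the median level (adjusted p = 0.019) and with a trend and robust prior (0.030). It also passed without SCI 1 (0.55, adjusted p = 0.028) and, just under the threshold, without SCI 4 (0.51). Bmp4 and Bmp7 were not seen to differ in change: the within-array difference moved by -0.04 (exact two-sided permutation p = 0.89). That difference was 1.41 ± 0.32 in SCI and 1.45 ± 0.09 in sham (SD, n = 4).

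Tgfbr1 had the largest difference of the 9 members and the narrowest sham group. It read 7.75, 7.95, 7.85 and 7.67 on the SCI arrays and 6.62, 6.68, 6.64 and 6.68 on the sham arrays (probe set 17798703). The sham arrays lay in a narrow band, and every SCI array lay far above them. The means were 7.81 ± 0.12 and 6.66 ± 0.03 (SD, n = 4), and the difference was 1.15 (SE 0.09, interval 0.94 to 1.36, adjusted p = 4.3e-05). Its adjusted p stayed at 0.0085 or less under each of 17 other settings, and that of Tgfb1 at 0.016 or less.

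Smad3, which carries the TGF-beta signal to the nucleus, read 5.02, 4.78, 5.05 and 5.54 on the SCI arrays and 4.13, 4.53, 4.54 and 4.82 on the sham arrays (probe set 17853397). SCI 2 was below sham 4, so the groups overlapped, and SCI 4 was the highest of the 8 arrays. The difference of 0.59 (SE 0.18, interval 0.20 to 0.99) missed the threshold with an adjusted p of 0.051. With all 8 arrays and the same difference it passed without genes below the median level (adjusted p = 0.017) and with a trend and robust prior (0.026). Without SCI 2 and without sham 4 it passed, both at 0.70 with an adjusted p of 0.041, and with the title number as a covariate it was 0.86 (adjusted p = 0.013).

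Smad7, the inhibitory Smad, read 4.83, 4.71, 4.59 and 4.84 on the SCI arrays and 4.91, 4.92, 5.21 and 4.91 on the sham arrays (probe set 17724318). All SCI arrays were below all sham arrays, by a narrow margin. The difference of -0.24 (SE 0.11, interval -0.48 to -0.01) did not pass (adjusted p = 0.17, unadjusted 0.044), nor did it under any of the 17 other settings. The within-array difference of Smad3 and Smad7 was 0.84 larger in SCI than in sham (exact two-sided permutation p = 0.029, adjusted 0.036), but adjusted values of 0.057 to 0.071 followed when SCI 1, SCI 3 or SCI 4 was left out.

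Tgfbi was at 6.48, 6.70, 6.34 and 6.44 on the SCI arrays and at 6.19, 6.40, 6.58 and 6.64 on the sham arrays (probe set 17717992). The groups lay within each other. The difference was 0.03 (SE 0.12, interval -0.24 to 0.31, adjusted p = 0.90), and the interval runs from 0.847-fold to 1.24-fold.

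**Figure D2:**
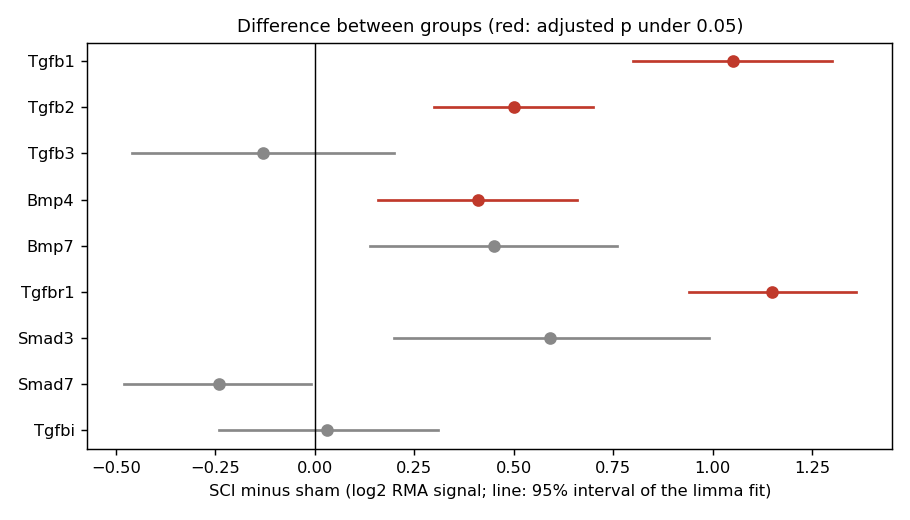
Difference between SCI and sham for each measured member (horizontal axis, log2 RMA signal), with the 95% interval of the limma fit as a line; red marks an adjusted p under 0.05. Tgfbr1 (1.15) and Tgfb1 (1.05) have the largest differences, and the intervals of Tgfb3 and Tgfbi span 0.

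The arrays of a group did not rank alike over the members. SCI 2 was above its group's mean in 7 of 9 members and sham 3 in 8 of 9, while the other 6 arrays were above it in 3 to 5. The median deviation of an array from its group over the members was at most 0.11, below the differences of the 4 higher members. The SD in SCI exceeded that in sham for Tgfb2, Tgfb3, Tgfbr1, Bmp4, Bmp7 and Smad3.

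The wider pathway was read from 8 lists of related genes, of which 121 different genes were tested. In these, 25 were higher in SCI and 2 lower, or 20.7% higher against 7.10% of all genes, and the median difference was 0.17. With genes below the median level left out, 15.1% of all genes then tested were higher. The lists were written with earlier results of these data known, and some genes are in more than 1 list. Their shares were not tested.

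**Figure D3:**
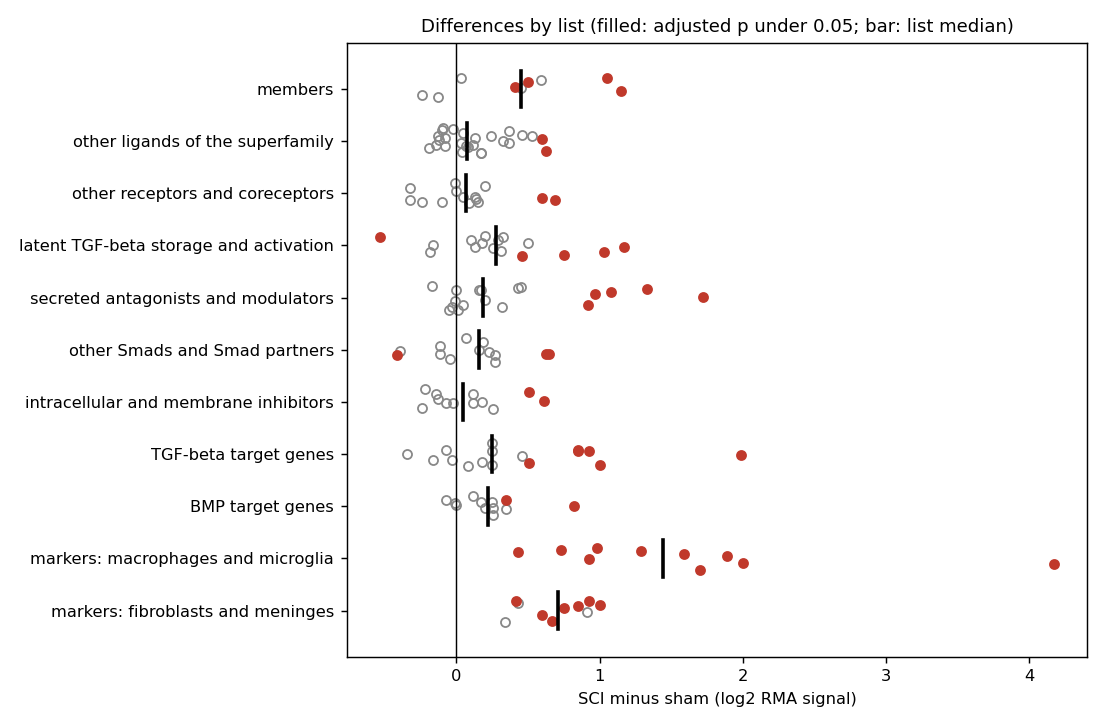
Difference between SCI and sham (horizontal axis, log2 RMA signal) for every tested gene of the members, the 8 pathway lists and 2 marker lists; filled red points have an adjusted p under 0.05 and the black bar is the list median. The bars of the pathway lists lie between 0.05 and 0.27, below those of the fibroblast (0.71) and macrophage (1.44) markers.

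Of 26 other ligands of the superfamily, 2 were higher and 0 lower, a share of 7.69% that is close to the background of 7.10%. Bmp6, known in iron homeostasis, rose by 0.60 (SE 0.10, adjusted p = 0.0037), from 7.04, 6.98, 7.26 and 7.04 on the sham arrays to 7.56, 7.73, 7.84 and 7.60 on the SCI arrays. Gdf15, a stress-induced ligand, rose by 0.63 (SE 0.15, adjusted p = 0.021), and its call was lost without SCI 2, SCI 3, sham 1 or sham 3 (0.056 to 0.062). Gdf10, next by p, had 0.53 (adjusted p = 0.053). The activin subunits Inhba and Inhbb had -0.02 and 0.07.

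Among 14 other receptors and coreceptors, 2 were higher and 0 lower (14.3% higher, against 7.10% of all genes). Tgfbr3, or betaglycan, which presents TGF-beta to the signalling receptors and binds Tgfb2 in particular, rose by 0.69 (SE 0.11, adjusted p = 0.0028). It was at 7.43, 7.47, 7.20 and 7.17 on the SCI arrays and at 6.54, 6.54, 6.86 and 6.57 on the sham arrays, with no overlap. Bmpr1b, a type I BMP receptor, rose by 0.60 (SE 0.11, adjusted p = 0.0046). The other BMP receptors Bmpr1a and Bmpr2 had 0.13 and -0.10, and Acvr1b, the activin type I receptor, had -0.32 (adjusted p = 0.12). Calls of both Tgfbr3 and Bmpr1b were lost without SCI 3, sham 1 and sham 2 together (0.059 and 0.079).

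Genes for storage and release of latent TGF-beta included 4 higher and 1 lower of 16 (25% higher, against 7.10% of all genes). Mmp14 and Mmp2, matrix proteases that can release it, rose by 1.17 (SE 0.17, adjusted p = 0.0012) and 1.03 (SE 0.15, adjusted p = 0.0016). Nrros, which tethers latent TGF-beta on microglia, rose by 0.75 (SE 0.15, adjusted p = 0.0067), from 3.96, 4.54, 4.18 and 3.82 on the sham arrays to 4.78, 4.84, 5.02 and 4.87 on the SCI arrays. Bmp1, a protease and not a BMP ligand, rose by 0.46 (SE 0.12, adjusted p = 0.024), a call lost without SCI 1, SCI 3, sham 1, sham 3 or sham 4 (0.051 to 0.069).

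Itgb8, the integrin chain that pairs with the alpha-V chain to activate latent TGF-beta, was the lower gene. It was at 7.30, 7.30, 7.48 and 7.52 on the SCI arrays and at 7.81, 7.89, 7.97 and 8.04 on the sham arrays. The groups were well apart, and the fall was of 0.53 (SE 0.10, adjusted p = 0.0052), with a value of 0.041 or less under each of 17 other settings. The latent binding proteins Ltbp1, Ltbp3 and Ltbp4 had 0.50, 0.20 and 0.31, with adjusted p of 0.11, 0.34 and 0.074. Mmp14, Mmp2 and Bmp1 lost their calls without SCI 3, sham 1 and sham 2 together (0.051, 0.0504 and 0.054).

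Secreted antagonists and modulators held 5 higher genes and 0 lower of 18 (27.8% higher, against 7.10% of all genes). Fmod and Bgn, small leucine-rich proteoglycans that bind TGF-beta, rose by 1.72 (SE 0.16, adjusted p = 9.4e-05) and 1.08 (SE 0.13, adjusted p = 5.3e-04). Chrdl1, a chordin-like protein that binds BMPs, went from 4.58, 4.13, 4.42 and 4.13 in sham to 5.64, 5.82, 5.63 and 5.47 in SCI, a rise of 1.33 (SE 0.13, adjusted p = 1.2e-04). Nbl1, a BMP-binding protein of the DAN family, and Sost, or sclerostin, of the same family and known chiefly as a Wnt inhibitor, rose by 0.92 (SE 0.12) and 0.97 (SE 0.15), with adjusted p of 5.9e-04 and 0.0023. All 5 passed under each of 17 other settings. The BMP antagonists Nog, Grem1 and Chrd had 0.00, -0.01 and 0.32, with adjusted p of 1.00, 0.98 and 0.35.

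Other Smads and their partners numbered 13, with 2 higher and 1 lower (15.4% higher, against 7.10% of all genes). The transcription factors Runx1 and Runx2, which act with Smads, rose by 0.63 (SE 0.12, adjusted p = 0.0055) and 0.65 (SE 0.16, adjusted p = 0.022), and Runx1 is also expressed by myeloid cells. Zfyve9, or SARA, which brings Smads to the receptor, fell by 0.41 (SE 0.11, adjusted p = 0.025). The calls of Runx2 and Zfyve9 were lost in 5 and 4 of the 8 fits with 1 array left out, with adjusted p up to 0.065 and 0.077. The signal-carrying Smad2, Smad1 and Smad5 had 0.27, -0.04 and 0.19, and the shared partner Smad4 had 0.27 (adjusted p = 0.15). Smad9, also a carrier of the BMP signal, had -0.39 (SE 0.13, adjusted p = 0.069) and did not pass.

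Of 12 intracellular and membrane inhibitors 2 were higher and 0 lower (16.7% higher, against 7.10% of all genes). The 2 were the corepressors Ski (0.51, SE 0.09, adjusted p = 0.0049) and Tgif1 (0.61, SE 0.14, adjusted p = 0.014). Smad6, the inhibitory Smad of the BMP branch, had -0.07 and Bambi, a pseudoreceptor, 0.12. Wwp1, a ubiquitin ligase of the pathway, had -0.22 (adjusted p = 0.13). Both calls were lost without SCI 3, sham 1 and sham 2 together (0.065 and 0.082).

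Genes known as TGF-beta targets held 6 higher and 0 lower of 16 (37.5% higher, against 7.10% of all genes). They were Timp1 (1.99, SE 0.19, adjusted p = 1.2e-04), the collagens Col1a2 (1.00), Col1a1 (0.93) and Col3a1 (0.85), fibronectin Fn1 (0.85, SE 0.22, adjusted p = 0.027) and the transcription factor Bhlhe40 (0.51). The 3 collagens are also in the list of fibroblast markers, whose summed signal is given above. Other targets did not pass, among them Klf10 (0.46), Ccn2 (0.25), Cdkn1a (-0.03), Tagln (-0.34) and Pmepa1 (0.18), with adjusted p of 0.12 to 0.94. The call of Fn1 was lost in 6 of the 8 fits with 1 array left out, all but those without SCI 4 and sham 3, and its difference was 0.52 without SCI 3, sham 1 and sham 2 together (adjusted p = 0.25).

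Of 12 BMP targets 2 were higher and 0 lower (16.7% higher, against 7.10% of all genes). The 2 are inhibitors of helix-loop-helix transcription factors. Id3 was at 6.11, 6.39, 5.91 and 6.05 on the SCI arrays and at 5.54, 5.03, 5.45 and 5.19 on the sham arrays, with no overlap. It rose by 0.82 (SE 0.14, adjusted p = 0.0037). Id2 rose by 0.35 (SE 0.09, adjusted p = 0.027). Its signal was low, with means of 3.36 in SCI and 3.01 in sham, below the median signal of every array (3.73 to 3.81). The Id2 call was lost in 5 of the 8 fits with 1 array left out (up to 0.073). It was also lost with each array centred on its median (0.051) and with a trend and robust prior (0.084). Id1 and Id4 had 0.26 and 0.17, with adjusted p of 0.15 and 0.35, and Atoh8, next by p after the called genes, had 0.26 (0.077).

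The genes whose profiles over the 8 arrays were nearest to a higher member were found by the root mean square (RMS) difference of log2 values after each gene's own mean was taken away. For Tgfb1 they were Dap, Ptbp3 and Lcat, at RMS differences of 0.057, 0.063 and 0.078. Those of Tgfbr1 were Dpp7, Lmo4 and Tnfaip8l2 (0.049, 0.071 and 0.073), with differences between groups of 1.16, 1.13 and 1.17. Tgfb2 was nearest to Notch2, Aldh2 and Gnai2 (0.043, 0.044 and 0.047), and Bmp4 to Pbk, Bri3 and Taf10 (0.067, 0.068 and 0.069). With 8 arrays in 2 groups, likeness of this kind rests mostly on the size of the group difference, and the lists are a description.

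**Figure D4:**
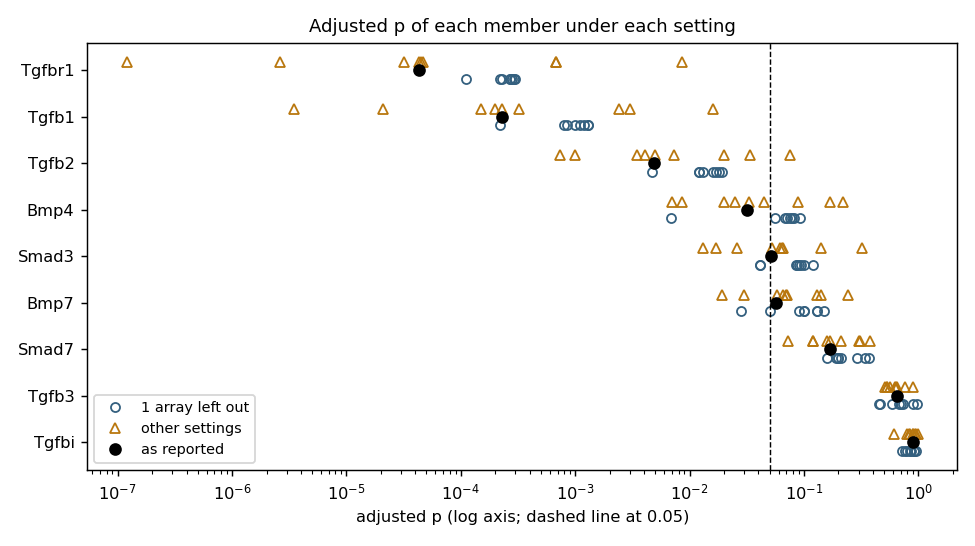
Adjusted p of each measured member (horizontal log axis, dashed line at 0.05) as reported (black), with 1 array left out (blue circles) and under 9 other settings (orange triangles). All points of Tgfbr1 and Tgfb1 lie left of the line, those of Bmp4, Smad3 and Bmp7 on both sides, those of Tgfb2 left of it but for 1 triangle (0.075), and those of Smad7, Tgfb3 and Tgfbi to its right.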

How the data were processed

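Messenger RNA was measured on 8 Affymetrix Rat Gene arrays of spinal cord, 4 SCI and 4 sham. The authors used Affymetrix Expression Console and RMA to make the deposited log2 values, per the submitters' processing notes. RMA corrects background, equalises distributions between arrays and summarises probes. Its version, settings and probe library were not given in the sources used here. It tends to compress differences of dim probe sets, and no detection calls were used. Depth has no meaning for arrays, whose number limits the precision.

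Of 36685 probe sets, 18511 had 1 gene symbol in the platform annotation, 575 several and 17599 none here. For 291 symbols with several probe sets the one with the highest mean was kept, which left 18166 genes. The 2 groups were fitted on all of them by lmFit and eBayes of limma 3.58.1 (R 4.3.3), with Benjamini-Hochberg adjustment. Every adjusted p of a single gene is from this model or, where another setting is named, from a limma fit under that setting. In the main fit 4850 genes had an unadjusted p under 0.05. A summed signal is the log2 of a list's signals added on the linear scale. Related members were compared by an exact permutation test, as was planned for 6 pairs, of which 5 could be run. The fits were tested on simulated data.

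Groups came from the labels. The replicate numbers, 1 to 4 in list order, pair no samples. The labels call the arrays separate samples but do not tie them to numbered animals, so p-values measure the spread between these samples, which may be technical. Members and lists were chosen with earlier results of these data known. Text names all members, in each pathway list the 3 genes with the smallest p, all called genes where 6 or fewer passed, and for each called member the 3 nearest profiles; other genes named as not past the test were picked with their values known. Alternatives covered scaling, a filter on dim genes, the probe set used, the variance model, array weights, a title number as covariate and arrays left out. Promoters are from RefSeq.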

Additional observations from a re-analysis of the deposited data

Results flagged for a closer look

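In 4 of 80 groups of 4 arrays of the named genes the gap of 1 array to the nearest other exceeded Dixon's 95% critical share of the group's range. Chance gives about 1 in 20. Smad7 was higher on sham 3 (5.21) than on the other sham arrays (4.91 to 4.92), with a ratio of 0.948; without sham 3 its difference was -0.17. Tgfbr3 was also higher on sham 3 (6.86 against 6.54 to 6.57, ratio 0.902). Bmp1 was higher on sham 2 (5.62 against 5.18 to 5.23, ratio 0.878), and Runx2 was lower on SCI 4 (4.21 against 4.67 to 4.72, ratio 0.905).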

How the results depend on the processing

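Tgfb1 and Tgfbr1 kept direction and call under all 17 alternatives, and Tgfb2 under 16. Without SCI 3, sham 1 and sham 2, 2 members, 11 pathway genes and 563 of all genes were higher, and 1 pathway gene and 284 of all genes lower. With the second title number as covariate the counts over all genes were 813 higher and 543 lower, and with all probe sets fitted 802 and 639; both settings left 1 lower pathway gene. With 1 array left out, 780 to 1283 genes and 1 to 2 pathway genes were lower. Without genes below the median level 6 members were higher and 5 pathway genes lower, beside 15.1% higher and 20% lower of the 9083 genes then tested. With a trend and robust prior 6 members were higher and 4 pathway genes lower, beside 8.43% higher and 9.64% lower of all genes. The Tgfb3 difference was 0.05 with the covariate. That of Tgfbi was 0.00 after centring on array medians, -0.05 to 0.10 with 1 array left out and -0.07 without the 3 arrays. The change of Bmp4 minus Bmp7 was 0.01 with quantile normalization again and -0.19 to 0.04 with 1 array left out, and that of Smad3 minus Smad7 was 0.72 to 0.96 with 1 left out. Gdf15, Bmp1, Runx2, Zfyve9 and Id2 also lost their calls with all probe sets fitted and with the covariate, and Fn1 and Tgif1 with all probe sets. Without the 3 arrays Bmp6 (0.083), Runx1 (0.066), Col1a1 (0.080), Col3a1 (0.074) and Bhlhe40 (0.093) did not pass either (adjusted p, limma). The cause of these shifts was not tested. The number of arrays limits the precision. The Tgfbr1 and Tgfbr2 pair was not run. No paired analysis was possible because the replicate numbers are in list order.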
